A study of Homo sapiens with 8 samples.

Results

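Sodium pentaborate pentahydrate (NaB) is a boron salt that the study tested as an agent against hepatocellular carcinoma (HCC). The comparison described here sets the library labelled Hep3B and treated with 1700 µM NaB for 48 h against the library labelled Hep3B control, which received no treatment for the same 48 h, and these are 2 of the 8 libraries of the series. In other work the abbreviation NaB often stands for sodium butyrate, an inhibitor of histone deacetylases, but the compound of this series is the borate. Other libraries labelled Hep3B were given 30 µM curcumin (Cur) with 6 µM piperine (Pip) or all 3 agents. The rest come from HepG2, a liver tumour line, given 2500 µM NaB, Cur with Pip, all 3 agents or nothing. Hep3B is an established line named for a human HCC. There is 1 library per condition, so no difference below has a replicate check, a test or a standard deviation, and the difference between NaB and control cannot be told apart from a difference between 2 cultures.

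Each library is a list of transcripts assembled by Cufflinks with a level in FPKM, the fragments per kilobase of transcript, scaled to the number of fragments in the library. A transcript was given to the gene that held at least 50% of its exonic bases on the same strand, and the FPKM of a gene's transcripts was summed. A transcript assembled without a strand could go to a gene on either strand. The NaB library holds 26311 transcripts, of which 85.9% fell to 12188 genes, and the control library holds 24846, of which 88.0% fell to 12463 genes. Depth estimated from coverage was 32.2 M fragments in NaB and 33.4 M in control, within the 25.6 to 35.7 M of the 8 libraries. Of 41 hepatocyte genes, 3 reached 1 FPKM in the NaB library and 5 in the control, against 32 in HepG2 after NaB and 30 in the HepG2 control. RB1, whose protein Hep3B cells are known to lack, was at 11.99 FPKM in NaB and 21.1 FPKM in control. An RNA level does not show whether an intact protein is made, so RB1 alone does not settle the label. The labelled line is not borne out by the hepatocyte genes, and the samples are called the libraries labelled Hep3B throughout. Both libraries were rich in simple epithelial keratins, with KRT8 at 1822 FPKM in NaB and 1654 FPKM in control and KRT18 at 2060 FPKM in NaB and 1772 FPKM in control.

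A gene counted as measured where it reached 1 FPKM in 1 or both libraries, which gave 12168 genes. The difference is given as log2((FPKM + 1) in NaB over (FPKM + 1) in control), and a gene was called past the threshold where this was above 1.5 or below -1.5, which is 2.83-fold. By this rule 651 genes (5.35%) were higher in NaB and 919 (7.55%) were lower. Of all measured genes 610 were listed in the NaB library alone and 674 in the control alone, and those of them that differed by enough are part of these totals. A gene at 0 in such a file need not be silent, since a transcript that was joined to a neighbour or not assembled leaves its gene at 0. Among the 10884 genes listed in both, 190 (1.75%) were higher and 451 (4.14%) were lower, and 82.7% differed by no more than 1 on the log2 scale. As a second measure the depth of each transcript was apportioned over the annotated exons it covers, whichever gene it had been given to. Of the genes listed in both, 94 (0.864%) were higher and 279 (2.56%) were lower by the summed and by the apportioned level together. The median log2 fold change of the genes listed in both was -0.17, and medians of gene lists are read against that value.

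**Figure D1:**
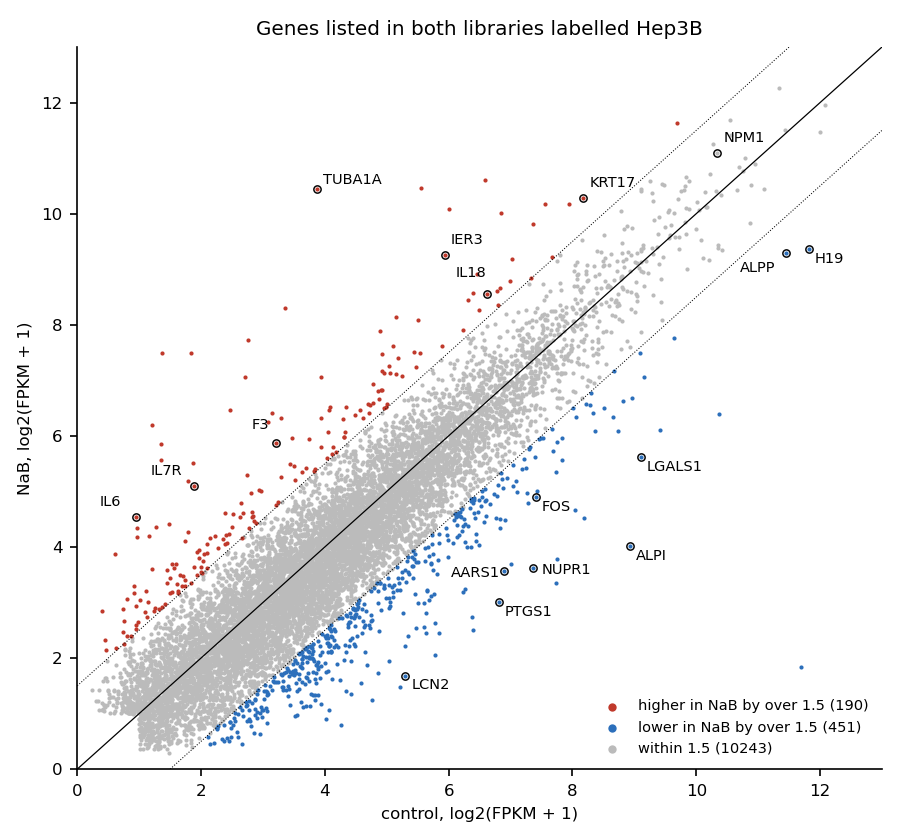
Levels of the 10884 genes listed in both libraries, as log2(FPKM + 1) in NaB (vertical) against control (horizontal). The solid line marks equal levels and the dotted lines a log2 difference of 1.5; 190 points lie above the upper dotted line and 451 below the lower one, and genes described in the text are circled.

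The genes that moved furthest were chosen among protein-coding genes listed in both libraries, with 5 FPKM or more in 1 of them, Cufflinks 95% intervals that do not overlap, and both measures past the threshold. Of the genes that met this rule 56 were higher and 250 were lower in NaB, and the 15 highest and 15 lowest are named here. A secreted cytokine, a receptor, a clotting initiator and a scavenger receptor stood among the highest, next to several genes with near copies elsewhere in the genome. Among the lowest stood an alkaline phosphatase, a cyclooxygenase, a stress-induced nuclear protein and an iron-carrier protein.

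IL6 encodes a cytokine that drives the acute-phase response and inflammation, (GRCh38 chromosome 7, 22725884 to 22732002). Its level was 22.2 FPKM in NaB (95% interval 19.9 to 24.5) and 0.937 FPKM in control (0.564 to 1.31), a log2 fold change of 3.58. About 698 fragments lie behind the NaB value and 38.0 behind the control value. IER3, an early response gene whose product modulates survival signalling (chromosome 6, 30743199 to 30744548), was at 612 FPKM in NaB and 60.2 FPKM in control, a log2 fold change of 3.32. IL7R, a cytokine receptor chain best known from lymphocytes (chromosome 5, 35852695 to 35879603), was at 33.1 FPKM in NaB and 2.71 FPKM in control. F3, which encodes tissue factor, the starter of blood clotting (chromosome 1, 94529173 to 94541759), was at 57.7 FPKM in NaB and 8.27 FPKM in control. OLR1, a receptor for oxidised lipoprotein, was at 61.3 FPKM in NaB and 10.04 FPKM in control. The rule asked for an apportioned level past the threshold as well, and for these 5 genes its log2 fold changes were 3.25 for IL6, 4.58 for IER3, 3.05 for IL7R, 2.64 for F3 and 2.51 for OLR1.

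Several of the remaining 10 highest genes have near copies and are less certain. TUBA1A, an alpha-tubulin with close paralogs, was at 1386 FPKM in NaB and 13.7 FPKM in control, a log2 fold change of 6.56 that came to 3.70 with apportioned depth and to 1.65 with transcripts under 300 nt left out. RPL38 and RPS28, ribosomal proteins, have 6 and 5 annotated pseudogenes named after them, and COX7B, a subunit of cytochrome c oxidase, has 4. RPL38 was at 1563 FPKM in NaB and 95.3 FPKM in control, RPS28 at 1029 FPKM in NaB and 114 FPKM in control, and COX7B at 481 FPKM in NaB and 87.2 FPKM in control. PABPC3 and POTEE belong to families of near-identical copies, and their reads may have been divided among the copies differently in the 2 libraries. PABPC3 was at 56.8 FPKM in NaB and 1.55 FPKM in control, a log2 fold change of 4.51 that came to 0.54 with transcripts under 300 nt left out, so its call ends there. Without those short transcripts RPS28 and POTEE were no longer listed in both libraries. The others were CCDC127 at 46.4 FPKM in NaB and 1.54 FPKM in control, APTX, a DNA strand-break repair protein, at 19.3 FPKM in NaB and 0.957 FPKM in control, TPRKB at 74.9 FPKM in NaB and 7.497 FPKM in control, and CALML4 at 17.3 FPKM in NaB and 1.24 FPKM in control.

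The largest fall was that of ALPI, which encodes intestinal-type alkaline phosphatase (chromosome 2, 232456125 to 232460753). It was at 15.2 FPKM in NaB (13.6 to 16.9) and 486 FPKM in control (465 to 507), a log2 fold change of -4.91. Its neighbours ALPP, the placental-type enzyme, and ALPG are near-identical in sequence, so reads can pass among the 3 genes. ALPP was at 629 FPKM in NaB and 2789 FPKM in control, and ALPG was listed at 0 in NaB and at 46.4 FPKM in control. Added up, the 3 genes came to 644 FPKM in NaB and 3322 FPKM in control, so the sum was lower as well as each member. The apportioned log2 fold change of ALPP was -1.39, short of the threshold.

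PTGS1, the constitutive cyclooxygenase of prostaglandin synthesis (chromosome 9, 122370530 to 122395703), was at 6.999 FPKM in NaB and 111 FPKM in control. The inducible cyclooxygenase gene PTGS2 moved the other way, at 78.5 FPKM in NaB and 23.5 FPKM in control, a log2 fold change of 1.70. NUPR1, a small stress-induced chromatin protein (chromosome 16, 28532708 to 28539008), was at 11.3 FPKM in NaB and 163 FPKM in control. LCN2, which binds bacterial iron carriers, was at 2.21 FPKM in NaB and 38.4 FPKM in control, the NaB value resting on about 59.8 fragments. LGALS1, the glycan-binding protein galectin, was at 48.1 FPKM in NaB and 549 FPKM in control. F11R, a tight junction adhesion molecule, was at 4.44 FPKM in NaB and 56.2 FPKM in control. AARS1, alanyl-tRNA synthetase, was at 10.8 FPKM in NaB and 118 FPKM in control. Its log2 fold change of -3.33 came to -2.39 with apportioned depth and to -2.26 with its largest transcript alone. AARS1 had no value with transcripts that span separate genes left out, or with an 80% share of exonic bases required. THRA, the thyroid hormone receptor alpha, was at 5.19 FPKM in NaB and 54.1 FPKM in control, and CFD, complement factor D, at 4.44 FPKM in NaB and 48.7 FPKM in control. The histone variant gene H2AJ was at 24.3 FPKM in NaB and 261 FPKM in control, and the translocon subunit gene SEC61G at 68.2 FPKM in NaB and 681 FPKM in control. The log2 fold change of SEC61G was -3.30 and came to -1.35, within the threshold, with transcripts under 300 nt left out. VPS28, YJEFN3, C12orf57 and METTL7A complete the set, with log2 fold changes between -3.73 and -3.13. The apportioned log2 fold changes of the 15, which the rule held below -1.5, ran from -5.22 for ALPI to -1.59 for H2AJ.

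**Figure D2:**
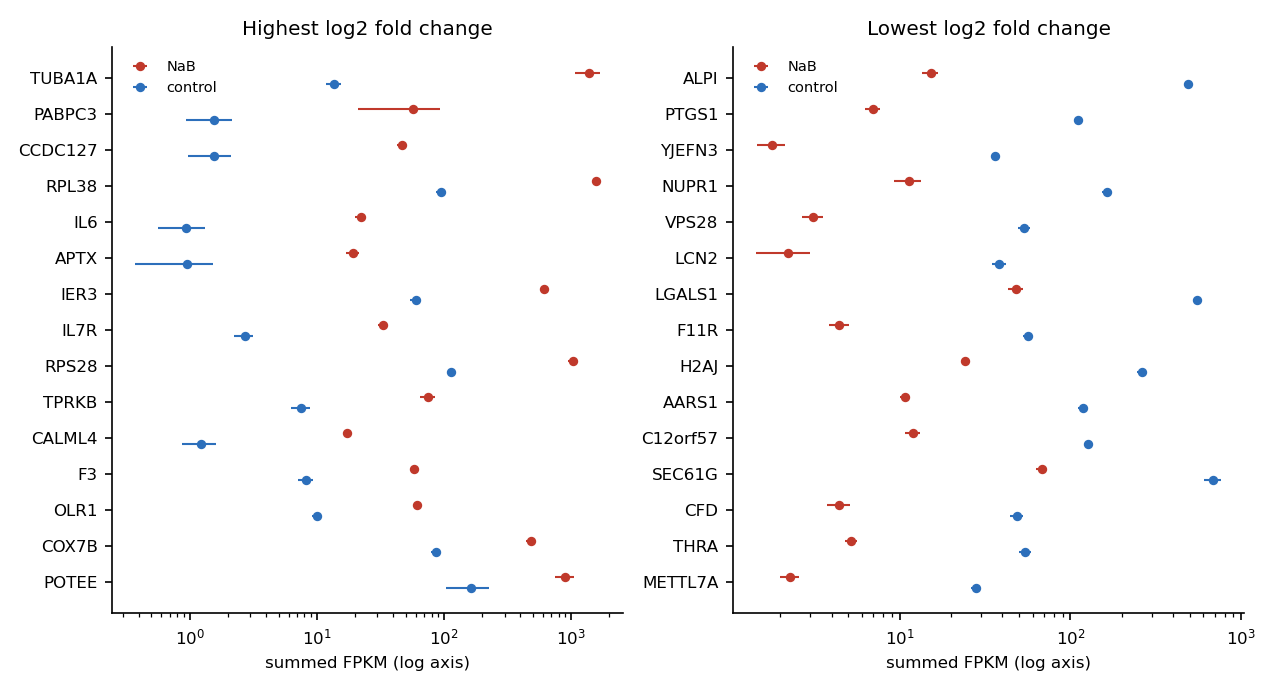
Summed FPKM on a log axis of the 15 protein-coding genes with the highest and the 15 with the lowest log2 fold change, NaB above control in each row, with bars for the Cufflinks 95% intervals. The intervals of NaB and control do not overlap in any row, as the rule required, and they hold the error of 1 library each, not the spread between cultures.

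Cytokine genes are commonly driven by NF-kB, a transcription factor that inflammatory signals release into the nucleus, where it binds kappaB sites. Of 41 listed NF-kB target, cytokine and chemokine genes 29 were measured and 25 were listed in both libraries. Among those 25, 5 were past the threshold upwards and 0 downwards, beside 1.75% and 4.14% of all genes listed in both. With apportioned depth as well these were 4 and 0, beside 0.864% and 2.56% of all genes listed in both. Their median log2 fold change was 0.33, against -0.17 for all genes. Besides IL6 the 5 were IL32, a cytokine, at 26.5 FPKM in NaB and 5.28 FPKM in control, IL18, a cytokine activated by the inflammasome, at 375 FPKM in NaB and 97.0 FPKM in control, BIRC3, an inhibitor of apoptosis and NF-kB feedback gene, at 78.0 FPKM in NaB and 18.6 FPKM in control, and SOD2, the mitochondrial superoxide dismutase, at 113 FPKM in NaB and 29.1 FPKM in control. SOD2 came to a log2 fold change of only 0.78 with apportioned depth. IL11, a cytokine related to IL6, was listed at 13.6 FPKM in NaB and at 0 in control. TNFSF10 went the other way, at 0 in NaB and 2.80 FPKM in control. Over the 29 measured, 7 were higher and 1 lower past the threshold, beside 5.35% and 7.55% of all measured genes.

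The NF-kB subunits themselves and most chemokines of the list stayed within the threshold. RELA was at 29.5 FPKM in NaB and 24.7 FPKM in control, NFKB1 at 10.3 FPKM in NaB and 9.06 FPKM in control, and the inhibitor gene NFKBIA at 82.0 FPKM in NaB and 62.3 FPKM in control. RELB stood at 6.54 FPKM in NaB and 2.99 FPKM in control and TNFAIP3, an inhibitor of the pathway, at 25.1 FPKM in NaB and 10.6 FPKM in control. CCL2, a monocyte chemokine, was lower, at 6.55 FPKM in NaB and 12.7 FPKM in control, and ICAM1, an adhesion molecule, was at 2.54 FPKM in NaB and 3.44 FPKM in control.

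The promoters of IL6 and IL32 are shown because these genes moved together and hold a kappaB-type match. The search was for GGANTTTCC on both strands in the 250 bases before the RefSeq start of each gene (GRCh38.p14), and 1.45% of 35116 promoters hold it. Promoters used here came from 32 of the 41 listed genes, and 15 of the 32 hold a match, but the list is made of known targets, so this share is no independent evidence. The promoters of BIRC3, SOD2 and IL11, which were also higher, hold no match. Those of NFKB1, NFKBIA and ICAM1, which stayed within the threshold, do. The match is in capitals, on the gene's own strand. It begins 72 bases before the start in IL6 (chr7:22726950-22727199, plus strand) and 98 and 68 bases before it in IL32 (chr16:3065153-3065402, plus strand).
IL6: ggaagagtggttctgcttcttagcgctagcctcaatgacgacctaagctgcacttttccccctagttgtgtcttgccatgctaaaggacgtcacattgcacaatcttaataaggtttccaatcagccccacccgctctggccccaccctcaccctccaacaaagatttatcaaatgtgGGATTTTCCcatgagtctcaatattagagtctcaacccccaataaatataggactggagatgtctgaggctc
IL32: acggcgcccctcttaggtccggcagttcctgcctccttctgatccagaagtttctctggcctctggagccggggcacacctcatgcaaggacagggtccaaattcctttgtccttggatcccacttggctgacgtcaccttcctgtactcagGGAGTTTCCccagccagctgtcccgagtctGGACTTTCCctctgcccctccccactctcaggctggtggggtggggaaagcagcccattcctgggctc

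Immediate early genes are transcribed within minutes of growth factor or stress signals and mostly encode transcription factors. Of 29 listed 25 were measured, all in both libraries, with 1 past the threshold upwards and 3 downwards, beside 1.75% and 4.14% of all genes listed in both. FOS was at 28.9 FPKM in NaB and 168 FPKM in control, FOSB at 3.31 FPKM in NaB and 19.4 FPKM in control, and EGR1 at 2.91 FPKM in NaB and 18.8 FPKM in control, with log2 fold changes of -2.50, -2.24 and -2.34. IER3 was the member past the threshold upwards. CCN1, a matricellular protein, was at 426 FPKM in NaB and 182 FPKM in control, MAFF at 24.1 FPKM in NaB and 9.50 FPKM in control, and JUN at 8.93 FPKM in NaB and 8.14 FPKM in control. The list thus held members far apart in both directions, around a median of 0.12.

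The dual-specificity phosphatases and sprouty proteins, which are induced by MAP kinase signalling and damp it, had the highest median of the lists described, 0.76 over the 15 of 16 listed in both libraries. Of these 15 genes 14 lay above the all-gene median, and 1 passed the threshold, upwards, beside 1.75% of all genes. DUSP4 was at 19.4 FPKM in NaB and 4.66 FPKM in control, DUSP5 at 59.1 FPKM in NaB and 25.1 FPKM in control, SPRY2 at 16.6 FPKM in NaB and 7.66 FPKM in control, and DUSP6 at 9.88 FPKM in NaB and 4.99 FPKM in control. DUSP1 was nearly level, at 154 FPKM in NaB and 169 FPKM in control. SPRY4 was listed in NaB alone, at 1.42 FPKM. EPHA2, an ephrin receptor, was at 150 FPKM in NaB and 43.2 FPKM in control, and ETV4, an ETS factor, at 30.3 FPKM in NaB and 5.97 FPKM in control (both chosen after their values were seen).

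Amino acid shortage and endoplasmic reticulum stress are answered through ATF4, a transcription factor that raises genes of amino acid synthesis, transport and tRNA charging, and through CHOP, the product of DDIT3. Of 36 listed targets of ATF4 and CHOP 32 were measured and 30 were listed in both libraries, with 1 past the threshold upwards and 5 downwards. With apportioned depth as well these were 1 and 4, and the shares of all genes listed in both were 1.75% and 4.14% by summed level and 0.864% and 2.56% by both measures. The median was -0.26. Enzymes of serine and asparagine synthesis were among the lower ones, with PHGDH at 15 FPKM in NaB and 81.2 FPKM in control and ASNS at 8.29 FPKM in NaB and 35.99 FPKM in control. PCK2, the mitochondrial phosphoenolpyruvate carboxykinase, was at 3.69 FPKM in NaB and 19.2 FPKM in control, and DDIT4, an inhibitor of mTOR signalling, at 61.4 FPKM in NaB and 227 FPKM in control. DDIT4 came to -1.34 with apportioned depth, short of the threshold. NUPR1, described above, was the fifth. DDIT3 and INHBE, an activin subunit, were listed at 0 in NaB, against 8.46 FPKM and 6.92 FPKM in control.

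Other targets of the same factors were higher in NaB. ATF5, a related transcription factor, was at 78.7 FPKM in NaB and 14.3 FPKM in control, a log2 fold change of 2.39. Within the threshold, SLC3A2 and SLC7A5, the chains of a large neutral amino acid transporter, were at 558 FPKM and 431 FPKM in NaB, against 267 FPKM and 222 FPKM in control, and GDF15, a stress cytokine, was at 266 FPKM in NaB and 130 FPKM in control. ATF4 itself was at 237 FPKM in NaB and 258 FPKM in control, a log2 fold change of -0.12. Of 20 amino acid transporter genes, all listed in both libraries, 0 passed the threshold, beside 1.75% of all genes upwards and 4.14% downwards. The transporters' median was 0.30 by summed level, with 11 above 0 and 9 below, and 0.06 by apportioned depth. Of 20 aminoacyl-tRNA synthetases, which charge tRNAs with amino acids, 16 had a log2 fold change below 0 and 13 below the all-gene median, around a median of -0.40. AARS1 alone passed the threshold, with the limits given above, beside 4.14% of all genes downwards. GARS1 was at 70.0 FPKM in NaB and 118 FPKM in control, and KARS1 was highest in the list, at 151 FPKM in NaB and 76.8 FPKM in control.

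The promoters of ASNS and AARS1 are shown because both genes were lower and hold the letters of a response element that ATF4 is known to bind. The search was for TGATGNAA on both strands in the same windows, and 3.14% of the 35116 promoters hold it. Of 29 promoters found for the listed ATF4 and CHOP targets 4 hold it, but this list too is made of known targets, so the share is no independent evidence. The promoters of PHGDH, PCK2, DDIT4 and DDIT3, which were also lower, hold no match. AARS1 is not on that list. The match begins 68 bases before the start of ASNS (chr7:97872409-97872658, minus strand) and 187 bases before that of AARS1 (chr16:70289507-70289756, minus strand), in AARS1 on the opposite strand of the gene.
ASNS: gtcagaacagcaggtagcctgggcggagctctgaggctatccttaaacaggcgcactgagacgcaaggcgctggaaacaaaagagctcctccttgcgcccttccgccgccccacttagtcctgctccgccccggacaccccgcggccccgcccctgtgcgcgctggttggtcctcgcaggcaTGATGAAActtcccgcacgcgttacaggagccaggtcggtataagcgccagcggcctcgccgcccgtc
AARS1: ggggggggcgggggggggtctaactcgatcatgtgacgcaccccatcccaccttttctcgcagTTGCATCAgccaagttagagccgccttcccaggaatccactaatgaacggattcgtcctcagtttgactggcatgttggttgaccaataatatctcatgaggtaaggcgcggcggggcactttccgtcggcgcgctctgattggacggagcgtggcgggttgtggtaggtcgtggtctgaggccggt
CHAC1, a glutathione-degrading enzyme whose promoter holds a match too, was at 1.42 FPKM in NaB and 4.46 FPKM in control and did not pass the threshold.

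Genes of ribosome assembly, which work in the nucleolus on ribosomal RNA, lay above the rest, with a median of 0.54 over 30 listed in both libraries, 27 of them above the all-gene median. NOP56, a core protein of the small nucleolar ribonucleoproteins, was the 1 member of the 30 past the threshold, beside 1.75% of all genes upwards, at 196 FPKM in NaB and 58.2 FPKM in control. GAR1 was at 49.9 FPKM in NaB and 20.5 FPKM in control, NOP58 at 103 FPKM in NaB and 53.7 FPKM in control, and NPM1, the abundant nucleolar chaperone, at 2170 FPKM in NaB and 1290 FPKM in control. BOP1 was the lowest member, at 60.3 FPKM in NaB and 92.4 FPKM in control. ODC1, the first enzyme of polyamine synthesis, was at 382 FPKM in NaB and 83.1 FPKM in control (chosen after its values were seen). The cytosolic ribosomal proteins had a median of 0.22 over 56 listed in both, 43 of them above the all-gene median and 13 below it, and the median was 0.10 with apportioned depth. Of 66 measured, 13 were past the threshold upwards and 5 downwards, beside 5.35% and 7.55% of all measured genes. Among the 56 listed in both, only 2 upwards and 0 downwards were past it by both measures, beside 0.864% and 2.56% of all genes. Many ribosomal protein genes have pseudogenes that can take their reads. RPS20 was at 1091 FPKM in NaB and 63.3 FPKM in control by summed transcripts, yet its apportioned log2 fold change was 0.80.

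Cell cycle genes were listed by phase. Of 36 G1/S genes listed in both libraries, which encode the replication machinery and its regulators, 31 had a log2 fold change below 0, and the median was -0.54. MCM6, part of the DNA-unwinding helicase, stood at 22.3 FPKM in NaB and 68.3 FPKM in control, and TYMS, thymidylate synthase, at 68.7 FPKM in NaB and 202 FPKM in control, and these were the 2 past the threshold, beside 4.14% of all genes downwards. TYMS came to -1.43 with apportioned depth, which leaves MCM6 past it by both measures. MCM5 was at 58.0 FPKM in NaB and 143 FPKM in control and CDK4 at 97.6 FPKM in NaB and 246 FPKM in control. Some members were higher, with CCND1 at 98.6 FPKM in NaB and 39.6 FPKM in control, although its apportioned log2 fold change was 0.23. PRIM1, a primase subunit, was listed at 24.7 FPKM in NaB and at 0 in control. Among 35 G2/M and mitosis genes none passed the threshold in either direction, beside 1.75% and 4.14% of all genes, and their median was -0.01. PTTG1, the securin, was the highest, at 193 FPKM in NaB and 84.9 FPKM in control, and PRC1 the lowest, at 69.4 FPKM in NaB and 127 FPKM in control. DNA repair genes had a median of -0.55 over 33 listed in both, with PARP1 at 61.6 FPKM in NaB and 123 FPKM in control. Of the 33, 0 were past the threshold upwards and 1 downwards, beside 1.75% and 4.14% of all genes. That 1 was ATM, which came to -0.10 with apportioned depth. FANCA and PMS2 were listed at 0 in NaB and at 23.2 FPKM and 13.1 FPKM in control. RAD54L went the other way, at 15.7 FPKM in NaB and 0 in control.

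**Figure D3:**
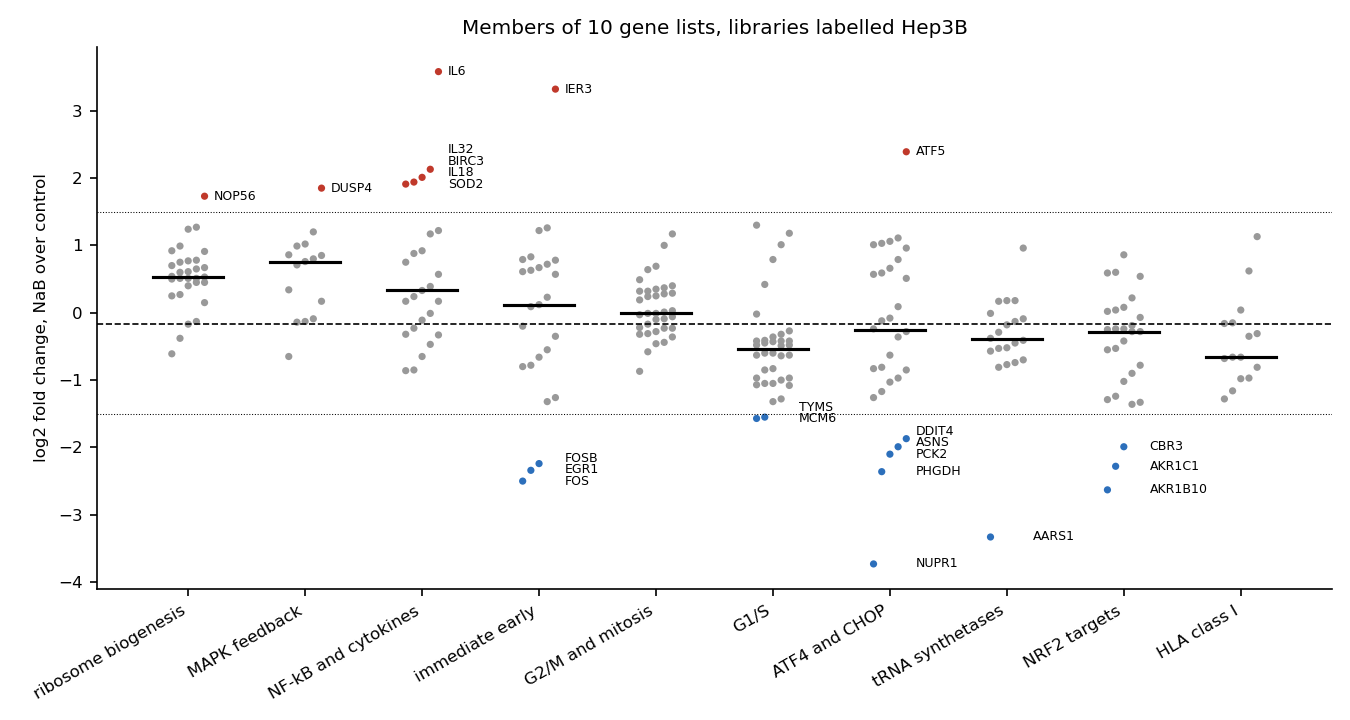
Log2 fold change of each member listed in both libraries (points) of 10 gene lists, with the list's median as a black bar, the all-gene median of -0.17 as a dashed line and the threshold of 1.5 either way as dotted lines. Red points passed the threshold upwards in NaB and blue points downwards; most G1/S members lie below the dashed line and most ribosome biogenesis members above it.

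The genes that brake the cell cycle and start apoptosis were tested in the study by another method, so their levels are given here. CDKN1A, the p21 inhibitor of cyclin-dependent kinases, was at 77.9 FPKM in NaB and 41.6 FPKM in control, a log2 fold change of 0.89. PMAIP1, a BH3-only protein, was at 43.9 FPKM in NaB and 15.5 FPKM in control, a log2 fold change of 1.45, just short of the threshold. BBC3, another BH3-only protein, was at 4.0 FPKM in NaB (2.35 to 5.65) and 6.10 FPKM in control (3.93 to 8.26), and these intervals overlap. GADD45A, a growth arrest gene, was at 18.6 FPKM in NaB and 24.6 FPKM in control by summed transcripts, and its apportioned log2 fold change had the other sign, 0.33. GAPDH, used as a reference gene in the study, had a log2 fold change of 0.07 with overlapping intervals. Of 38 apoptosis genes, all listed in both libraries, 2 were past the threshold upwards and 0 downwards, beside 1.75% and 4.14% of all genes listed in both and 5.35% and 7.55% of all measured. They were BIRC3, described above, and the decoy receptor gene TNFRSF10D at 14.8 FPKM in NaB and 3.82 FPKM in control. CFLAR, an inhibitor of death receptor signalling, was at 28.5 FPKM in NaB and 13.7 FPKM in control within the threshold, and the caspase genes and BAX were all within it, around a list median of -0.06. SIRT3, a mitochondrial deacetylase, was listed at 0 in NaB and at 7.53 FPKM in control. SLC4A11, related to plant borate transporters, was at 3.85 FPKM in NaB and 3.25 FPKM in control.

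Antioxidant genes that NRF2 regulates had 3 members past the threshold downwards among 28 listed in both and none upwards, beside 4.14% and 1.75% of all genes. They were AKR1B10 at 1.20 FPKM in NaB and 12.6 FPKM in control, AKR1C1 at 101 FPKM in NaB and 496 FPKM in control, and CBR3 at 1.70 FPKM in NaB and 9.73 FPKM in control, all reductases of carbonyl compounds. AKR1C2 and AKR1C3, close paralogs of AKR1C1, were at 126 FPKM and 232 FPKM in NaB, against 309 FPKM and 551 FPKM in control. Other targets did not follow, with TXNRD1 at 195 FPKM in NaB and 189 FPKM in control and GCLM at 8.65 FPKM in NaB and 8.52 FPKM in control. FTL, the ferritin light chain, was listed at 0 in NaB and at 2021 FPKM in control, but its apportioned log2 fold change was -0.94.

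Genes of antigen presentation on HLA class I had a median of -0.66 over 15 genes listed in both libraries. None passed the threshold, beside 1.75% of all genes upwards and 4.14% downwards. By summed level the HLA class I median was the lowest of the lists with 10 or more members, but with apportioned depth it was -0.49, and that of the fatty acid genes, -0.57, was lower. TAPBP, which loads peptides, was at 20.9 FPKM in NaB and 52.3 FPKM in control, HLA-B at 153 FPKM in NaB and 301 FPKM in control, and HLA-E at 35.5 FPKM in NaB and 56.5 FPKM in control. Autophagy and lysosome genes had a median of -0.49 over 35, with the cathepsin gene CTSZ at 58.6 FPKM in NaB and 146 FPKM in control. Genes of fatty acid synthesis and oxidation had a median of -0.57 over 24, with the synthase gene FASN at 55.0 FPKM in NaB and 97.9 FPKM in control.

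Of 10 keratin genes listed in both libraries 1 was past the threshold upwards and 2 downwards, beside 1.75% and 4.14% of all genes. KRT17, a keratin of basal and injured epithelium (chromosome 17, 41619442 to 41624842), was at 1240 FPKM in NaB and 288 FPKM in control. KRT19 was at 18.4 FPKM in NaB and 73.3 FPKM in control, and KRT4 at 0.868 FPKM in NaB and 15.2 FPKM in control. Of 24 integrin, laminin and collagen genes listed in both 1 was past the threshold upwards and 1 downwards, beside the same 1.75% and 4.14%. They were ITGA2 at 8.77 FPKM in NaB and 2.22 FPKM in control and LAMB2 at 11.4 FPKM in NaB and 34.9 FPKM in control. The list's median was 0.07 by summed level and -0.27 with apportioned depth. Of 14 squamous epithelium markers 3 were measured, KRT4, SFN and PITX1, with a summed level of 156 FPKM in NaB and 515 FPKM in control, and the rest were under 1 FPKM in both libraries. Of 10 fibroblast markers 5 were measured, summing to 86.8 FPKM in NaB and 308 FPKM in control, led by the proteoglycans DCN at 21.3 FPKM in NaB and 120 FPKM in control and LUM at 61.6 FPKM in NaB and 179 FPKM in control. The 5 measured hepatocyte genes summed to 306 FPKM in NaB and 713 FPKM in control, most of it CPS1. Of the blood cell markers only CD68 was measured, at 12.4 FPKM in NaB and 15.2 FPKM in control, and of the endothelial markers only CDH5, at 0.935 FPKM in NaB and 4.21 FPKM in control. Whether a change in the mix of cells had a part in the other results was not tested, and in bulk RNA fewer cells of a type and less RNA per cell cannot be told apart.

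Targets of YAP and TEAD, the effectors of the Hippo pathway, had 2 of 17 members past the threshold upwards and 1 downwards, beside 1.75% and 4.14% of all genes. The higher ones were F3 and ANKRD1, with ANKRD1 at 8.0 FPKM in NaB and 0.880 FPKM in control, while CCN2, a standard target of the same factors, was at 2.34 FPKM in NaB and 13.5 FPKM in control. BMP2, a ligand of the TGF-beta family, was at 47.7 FPKM in NaB and 15.4 FPKM in control. Hypoxia targets had 2 of 26 members past the threshold upwards, beside 1.75% of all genes, ADM, a vasodilator peptide, at 66.3 FPKM in NaB and 15.5 FPKM in control, and ANKRD37 at 5.24 FPKM in NaB and 0.980 FPKM in control. ANKRD37 came to 1.45 with apportioned depth, which leaves ADM past the threshold by both measures. DDIT4 belongs to this list too and was the 1 member past it downwards by summed level. Genes known to rise under histone deacetylase inhibitors, the class that sodium butyrate belongs to, had 0 of 11 past the threshold upwards and 2 downwards, ALPI and GSN, beside 1.75% and 4.14% of all genes, with a median of -0.56. GSN came to -1.40 with apportioned depth, which leaves ALPI past it by both measures.

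**Figure D4:**
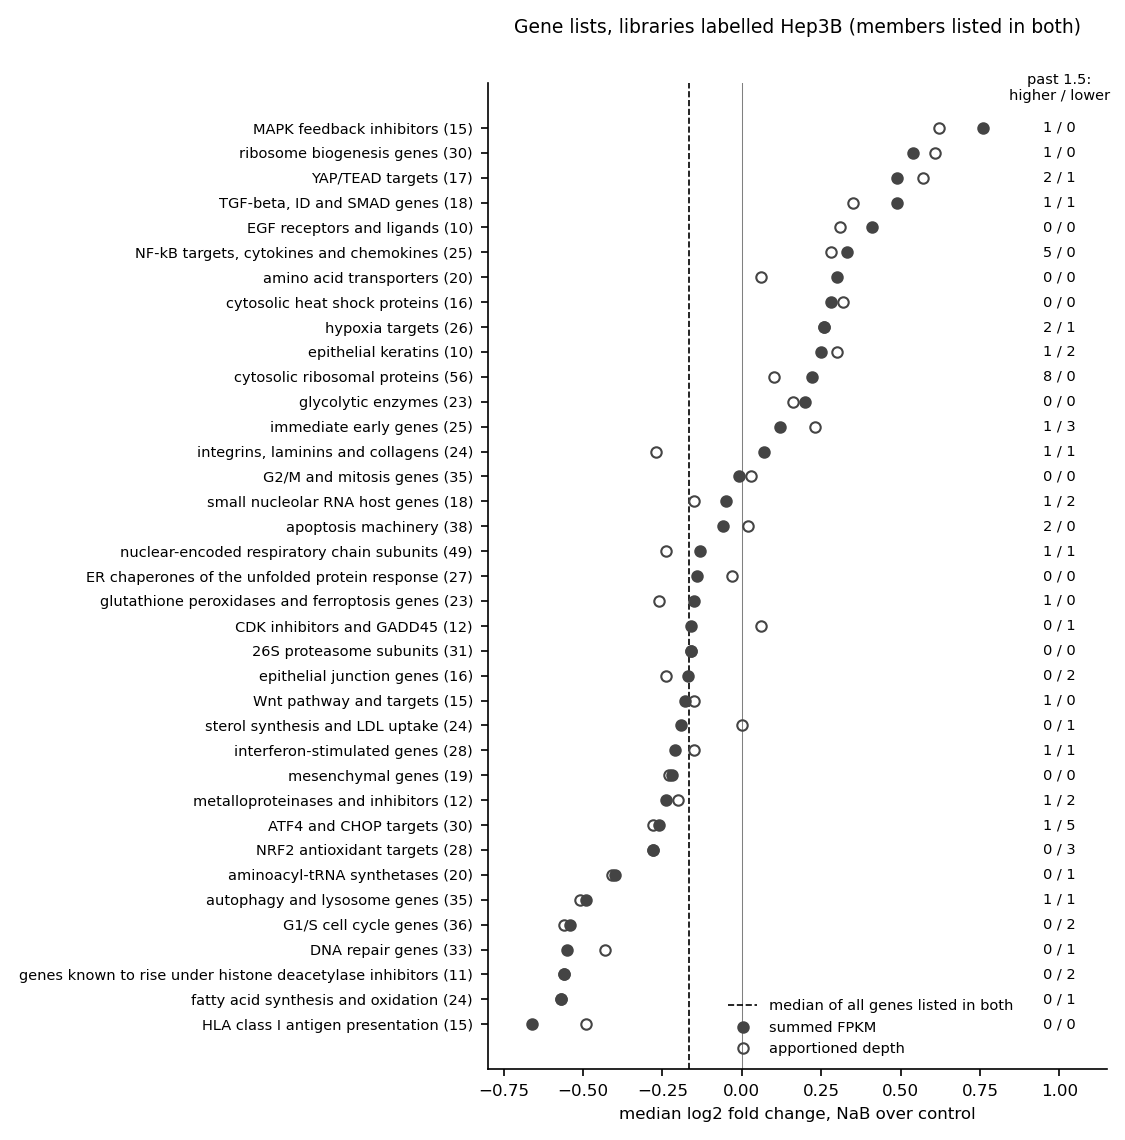
Median log2 fold change of the lists with 10 or more members listed in both libraries, by summed FPKM (filled) and apportioned depth (open), with the number of members in brackets and the counts past 1.5 upwards and downwards at the right. The dashed line is the all-gene median of -0.17; MAPK feedback inhibitors are at 0.76 and HLA class I genes at -0.66.

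Among long noncoding RNAs, chosen by the same conditions as the protein-coding genes, MALAT1, a nuclear RNA, was at 179 FPKM in NaB and 45.6 FPKM in control, and H19, an imprinted RNA, at 654 FPKM in NaB and 3602 FPKM in control. SNHG19, a host of small nucleolar RNAs, was at 79.6 FPKM in NaB and 400 FPKM in control, and HCP5 at 2.42 FPKM in NaB and 15.6 FPKM in control. LINC00707 was at 7.25 FPKM in NaB and 1.02 FPKM in control, and SCAT8 and PCOTH were higher with log2 fold changes of 2.14 and 1.94. The unnamed gene ENSG00000286966 on chromosome 1 was highest, at 196 FPKM in NaB and 33.4 FPKM in control. SP2-DT and VPS13B-DT, which start beside protein-coding genes, had log2 fold changes of -3.03 and -2.58.

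Genes listed in only 1 of the libraries make up much of the total past the threshold. Of 1284 such genes 663 also differed past the threshold in the same direction with apportioned depth, 333 of them listed in NaB alone and 330 in control alone. Protein-coding genes with high levels among those in NaB alone were HNRNPCL1 at 600 FPKM, C19orf53 at 505 FPKM, RPL36 at 462 FPKM and AVPI1 at 415 FPKM. The interval of HNRNPCL1 was wide, from 298 to 902 FPKM. Its level in the libraries labelled Hep3B was 412 FPKM after Cur with Pip and 3.91 FPKM after all 3 agents, and it was 0 in each HepG2 library. The apportioned level of AVPI1 was 407 FPKM in NaB and 43.3 FPKM in control, so reads of the gene were present in the control library under a transcript given to no gene or to a neighbour. In control alone the highest were RPS19 at 2073 FPKM, NDUFS6, a subunit of respiratory complex I, at 596 FPKM, CBX3, a heterochromatin protein, at 330 FPKM, COPS6 at 322 FPKM and HSPE1, a mitochondrial chaperonin, at 243 FPKM. CBX3 and HSPE1 had an apportioned level of 0 in NaB, and they have 10 and 26 pseudogenes named after them. Genes such as RPS19, CBX3 and HSPE1 are used by every cell, so a listing at 0 is not read as silence.

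The leading genes were also followed in the other libraries, whose agents or dose differ, so the values are set side by side without a comparison of the treatments. These share the same control library where they are labelled Hep3B. IL6 was at 13.5 FPKM after NaB with Cur and Pip and 3.80 FPKM after Cur with Pip, PTGS1 at 4.35 FPKM and 17.6 FPKM, ALPI at 26.3 FPKM and 90.3 FPKM, and KRT17 at 695 FPKM and 176 FPKM. NUPR1 was at 64.6 FPKM after NaB with Cur and Pip and 276 FPKM after Cur with Pip, and ASNS at 47.5 FPKM and 131 FPKM, so the NaB library held the lowest level of both genes among the 4 libraries labelled Hep3B. IER3 was listed at 0 after NaB with Cur and Pip. In HepG2, where the NaB dose was 2500 µM, 10 of the 15 highest genes and 11 of the 15 lowest were listed in both the NaB and the control library. Of the 10, 3 were higher past the threshold, TUBA1A, RPS28 and COX7B, all named above among the genes with near copies. Of the same 10, 5 had a log2 fold change above 0 and 5 below. Among the 5 below were IER3 at -1.39, RPL38 at -0.73 and F3 at -0.24. Of the 11 lowest none was lower past the threshold. There 2 were above 0 and 9 below, with LCN2 nearly level at -0.03. The share of all genes past the threshold in HepG2 was not worked out, so these counts are not read as a result about the genes. In HepG2 the NaB and control levels of NUPR1 were 13.4 FPKM after NaB and 28.8 FPKM in control, those of ASNS 4.07 FPKM after NaB and 31.7 FPKM in control, and those of PHGDH 29.8 FPKM after NaB and 89.0 FPKM in control. IL6, IL7R, OLR1 and ALPI were listed at 0 in both of these HepG2 libraries.

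**Figure D5:**
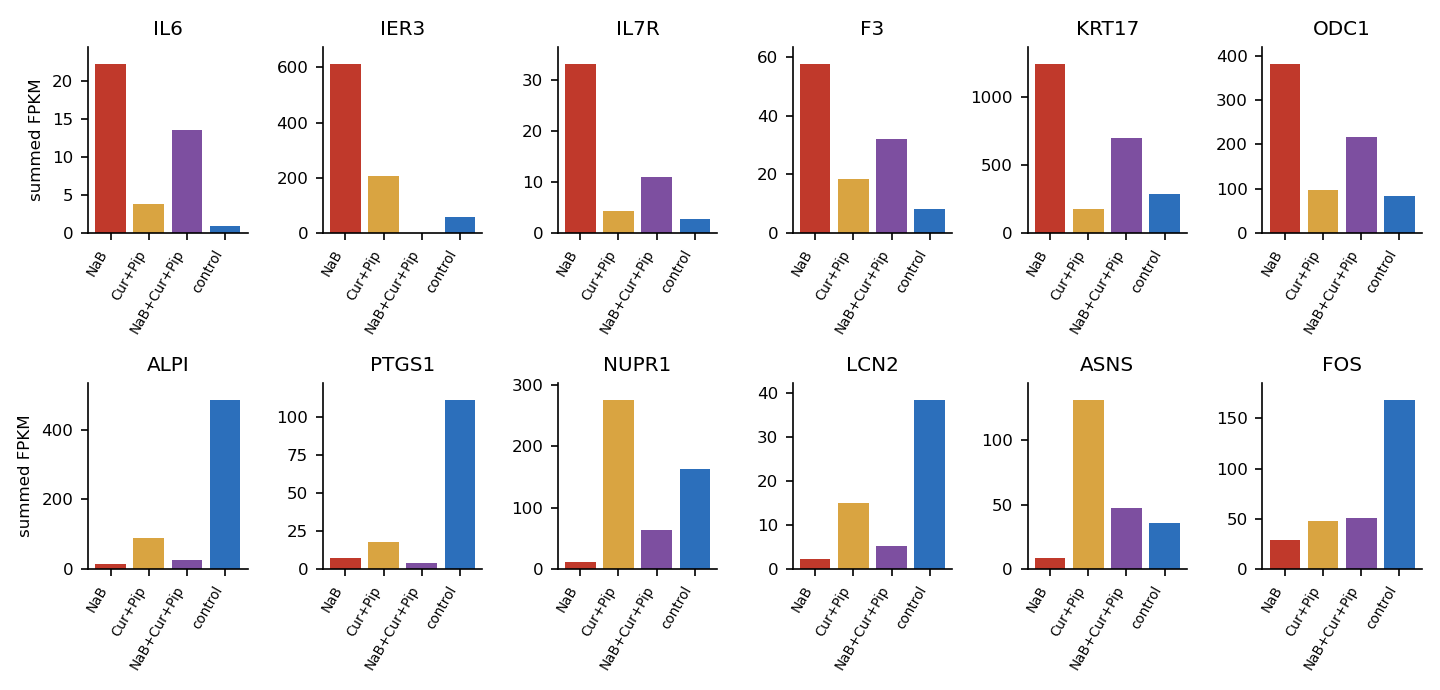
Summed FPKM of 12 genes in the libraries labelled Hep3B, from left NaB, Cur with Pip, all 3 agents, and control, on linear axes that start at 0 and differ between panels. In the upper row the NaB bar is the tallest for each gene, from 22.2 FPKM for IL6 to 1240 FPKM for KRT17, and in the lower row the NaB bar is below the control bar for each gene.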

How the data were processed

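Per the study's methods, RNA was isolated in triplicate, whether pooled is not stated, and directional libraries were read on a NovaSeq system. Alignment by the authors was to GRCh38 with STAR, and Cufflinks then assembled each library (FastQC and Cuffdiff are also in the submitters' processing notes; no version is given in the sources used here). What the authors deposited is an FPKM per assembled transcript, with a 95% interval and coverage; no counts were used, so no count test was possible.

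Transcripts were assigned to GENCODE release 44 genes on the same strand, or on either strand where a transcript had none, with bedtools 2.31.1. Python 3.11.15, numpy 2.4.6 and pandas 2.3.3 were used. A gene's interval is the sum of its transcripts' bounds and covers estimation error in 1 library only. Fragments are coverage times length over 300 bases. The 1.5 threshold is that of the methods. Named genes are the 15 highest and 15 lowest, the 5 highest and lowest long noncoding RNAs, up to 4 members of a list at either end with its defining members, genes the study measured otherwise, and the 5 with the highest level in 1 library alone; for some of these the result is not reported here. The members and lists were chosen with earlier results of these data known. Scripts were tested on simulated data. Alternatives changed the pseudocount, filter, scaling, gene level, assignment, gene set and threshold.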

Additional observations from a re-analysis of the deposited data

Results flagged for a closer look

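Transcripts assigned to no gene were outside every comparison above, and 191 of them in the NaB library had several exons, at least 300 bases and no exonic overlap with any transcript of the control library, against 226 such transcripts in the control library. The 3 with the highest level in NaB were at 10.6 FPKM on the unplaced contig GL000221.1 (95% interval 5.69 to 15.6), at 10.4 FPKM on chromosome 8 (7.45 to 13.4) and at 7.57 FPKM on chromosome 6 from 26193315 to 26199284 (7.01 to 8.13). The last one lies among histone genes, over H3C4 and H2AC7, which hold too few of its bases for an assignment. In the control library the highest were at 14.6 FPKM on chromosome 8, at 6.07 FPKM on chromosome 6 from 12314439 to 12334763 and at 5.06 FPKM on chromosome 7 from 72952172 to 72954784. Each rests on 1 library.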

How the results depend on the processing

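The counts of 651 higher and 919 lower genes were recomputed under 17 alternatives. A pseudocount of 0.1 gave 1448 lower, and a pseudocount of 5 gave 311 higher and 368 lower. Protein-coding genes alone gave 363 higher. Genes listed in both libraries gave 190 higher and 451 lower. A threshold of 1 gave 1164 higher and 2006 lower, and a threshold of 2 gave 424 higher and 513 lower. The other counts stayed within 1.5 times those reported. Apportioned depth gave 661 higher and 918 lower, and 1026 of the 1570 genes past the threshold were past it the same way by both measures. The median of ratios between the libraries was 0.876, a shift of -0.19 on the log2 scale, and scaling by it gave 761 higher and 792 lower. For the 40 leading genes and long noncoding RNAs, values were recomputed under 9 alternatives, and some genes had no value under some of them. AARS1 and CALML4 had none with transcripts that span separate genes left out. At an 80% share of exonic bases these genes, TPRKB, COX7B, LGALS1, VPS28, YJEFN3, C12orf57 and CFD were among those without a value. The 340 values that could be counted held 0 changes of sign, and 330 stayed past 1.5, which the rule for naming them favours. Of the others, PABPC3 came to 0.54 and SEC61G to -1.35 with transcripts under 300 nt left out, and to 0.67 and -1.34 as TPM over transcripts of at least 300 nt, and the rest were long noncoding RNAs of low level, mostly with the pseudocount of 5. Of 396 list medians, 370 moved by less than 0.2. With 1 library per condition no replicate could be left out. No paired analysis was possible because each group holds 1 library. Low genes are limited by depth, such as IL6 in control, and intervals cover estimation error only.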

Other observations

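Glycolytic enzymes lay slightly above the other genes, with a median log2 fold change of 0.20 over 23 listed in both libraries, TPI1 at 853 FPKM in NaB and 495 FPKM in control, and PFKL at 32.0 FPKM in NaB and 75.9 FPKM in control. A list of mostly cytosolic heat shock proteins had a median of 0.28 over 16, with HSPA8 at 1197 FPKM in NaB and 629 FPKM in control. HSPH1 was at 59.7 FPKM in NaB and 30.5 FPKM in control. Its members DNAJB4 and HSPE1, the mitochondrial chaperonin, were listed at 0 in NaB, against 14.1 FPKM and 243 FPKM in control. Interferon-stimulated genes held members on both sides around a median of -0.21 over 28, with the exonuclease gene ISG20 at 23.5 FPKM in NaB and 5.38 FPKM in control and IFI35 at 4.23 FPKM in NaB and 16.3 FPKM in control. The epidermal growth factor ligand EREG was at 15.4 FPKM in NaB and 5.70 FPKM in control, and the transferrin receptor TFRC at 569 FPKM in NaB and 215 FPKM in control. The junction genes TJP3 and CDH3 were lower, TJP3 at 1.20 FPKM in NaB and 11.96 FPKM in control and CDH3 at 1.05 FPKM in NaB and 6.46 FPKM in control.

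The processed pseudogene RPL10AP2 was at 2.57 FPKM in NaB and 3303 FPKM in control, while RPL10A was at 187 FPKM in NaB and 341 FPKM in control. Because the pseudogene and its parent gene are near-identical, their reads may have been divided differently in the 2 libraries. These genes were chosen after their values were seen.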
